A study of Mus musculus with 8 samples.

Results

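The genes described here are the 9 granzyme genes Gzma, Gzmb, Gzmc, Gzmd, Gzme, Gzmf, Gzmg, Gzmk and Gzmm and the perforin gene Prf1. They were taken by symbol from the deposited expression table, in which all 10 are among 22520 rows. Bulk RNA-seq was performed on purified mouse splenic CD8+ T cells under persistent stimulation with anti-CD3 and anti-CD28 antibodies and IL-2, a culture used to drive T cells towards exhaustion. The cells received 40 µM diisopropylamine dichloroacetate (DADA), an inhibitor of pyruvate dehydrogenase kinases, or an equal volume of its solvent DMSO from day 3, and were harvested on day 6, with 4 libraries in each group. Both groups shared the tissue, the stimulation and the culture time, and the labels give no further genetic change. The series calls the libraries biological replicates without saying whether each came from its own mouse, so p-values measure the spread between these libraries.

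Cytotoxic T cells store perforin and granzymes in secretory granules and release them onto a bound target cell. Perforin forms pores in the target membrane, through which granzymes, a family of serine proteases, reach the cytosol and cleave their substrates. Granzyme B cleaves after aspartate and activates caspases, granzymes A and K cleave after basic residues, granzyme M prefers methionine or leucine, and granzymes C to G are relatives of granzyme B found in rodents.

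Values are FPKM, fragment counts scaled for transcript length and library size, so levels of different genes can be compared per length. Estimated depth was 13660000 to 16420000 fragments in the DMSO libraries and 15120000 to 18660000 in the DADA libraries. By this estimate, counting error was slightly smaller with DADA. Totals above the range searched were not tried, so true depth, and each fragment number given here, could be higher. The cell label was checked against markers. All 5 CD8 T cell markers found in the table were expressed (Trac, Trbc1 and Trbc2 were not analysed here), and their summed level was 674 to 680 FPKM in DMSO and 776 to 805 FPKM in DADA, while Cd4 stayed at or below 0.411 FPKM in every library. RNA came from whole cultures, so a change in the share of cells that express a gene cannot be told apart from a change in RNA per cell.

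Transcripts of perforin and of the main granzymes were higher with DADA. Prf1 was 6.51 times as high, Gzma 7.80 times, Gzmb 2.32 times, Gzmc 1.51 times and Gzmd 1.55 times, as ratios of the group means (n = 4 in each group). Of the 10 genes, 6 passed the filter on low values (at least 1 FPKM in at least 4 of the 8 libraries), and limma called 5 of these 6 higher and 0 lower at an adjusted p under 0.05. Over all 10666 genes tested, 66.2% were called, 30.9% higher and 35.3% lower, so a call by itself was common in this comparison. The size of the change was less common: 3.56% of genes were called higher with a log2 fold change of at least 1, and Prf1, Gzma and Gzmb were among them. The median log2 fold change was 0.90 over the 6 granzyme and perforin genes tested and −0.02 over all genes tested. Over all 10 genes in a fit without the filter it was 0.48, against 0.0045 over all genes in that fit.

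**Figure D1:**
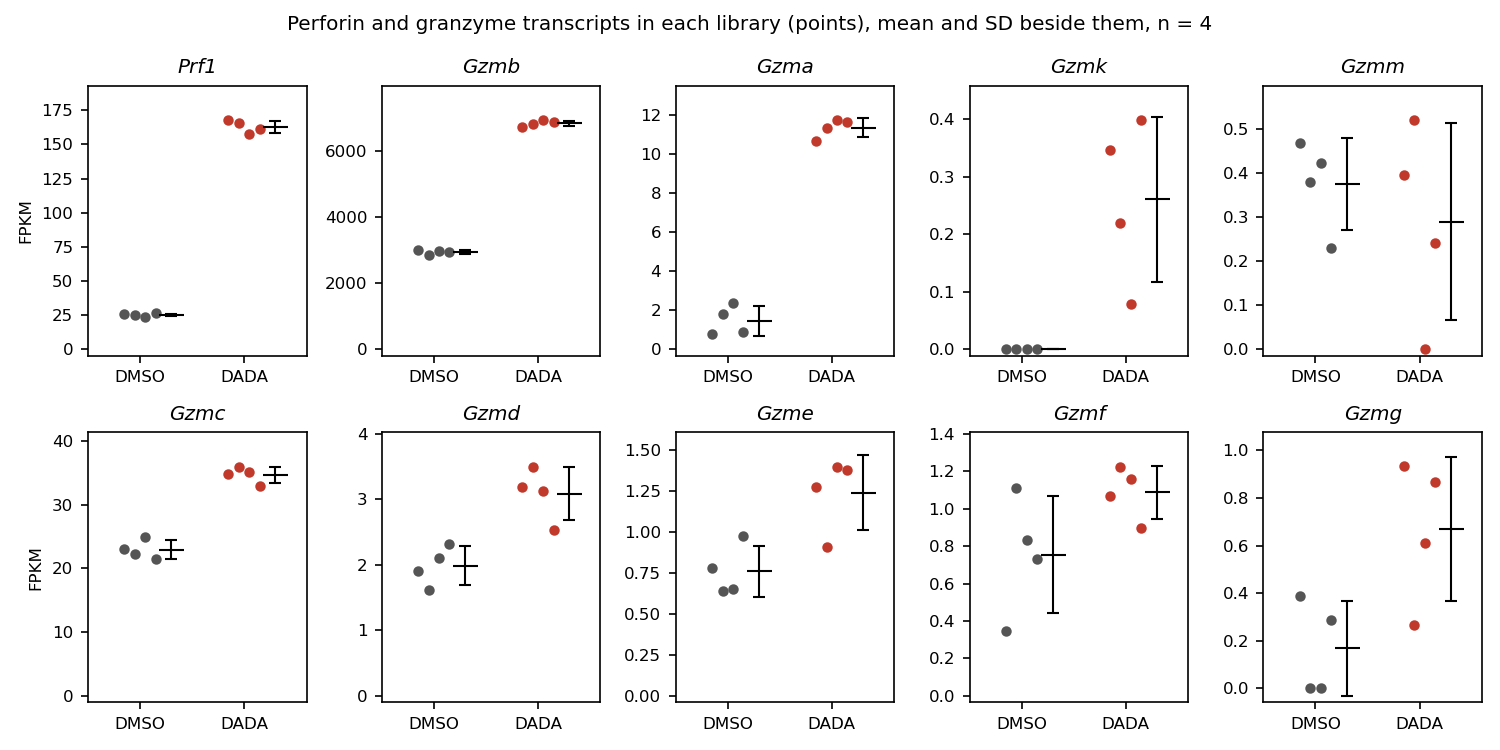
FPKM of perforin and the 9 granzyme genes (y axis, linear, a separate scale for each gene) in the 4 DMSO and 4 DADA libraries; each point is 1 library, and the bar beside the points is the mean with its SD. The 2 groups of points are separate for Prf1, Gzmb, Gzma, Gzmk, Gzmc and Gzmd and overlap for Gzme, Gzmf, Gzmg and Gzmm.

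Perforin, the pore-forming protein, had one of the largest changes in the table. Prf1 stood at 25.5, 24.8, 23.8 and 26.1 FPKM in DMSO libraries 1 to 4. With DADA it stood at 168, 166, 158 and 161 FPKM. The lowest DADA library was thus far above the highest DMSO library, and the spread within each group was small, with coefficients of variation of 3.90% in DMSO and 2.76% in DADA. The log2 fold change of Prf1 was 2.66 (SE 0.0323, 95% interval 2.58 to 2.73, limma adjusted p = 4.07e-12), and Prf1 ranked 43 by log2 fold change among the 10666 genes. Its rank by level within a library moved from between 3087 and 3348 in DMSO to between 328 and 360 in DADA.

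Granzyme B was by far the most abundant of the 10 transcripts in both groups. Gzmb stood at 3016, 2856, 2982 and 2931 FPKM in the 4 DMSO libraries. It stood at 6733, 6823, 6929 and 6864 FPKM in the 4 DADA libraries. No library of one group came near the other group, and the coefficient of variation was 2.35% in DMSO and 1.20% in DADA. The log2 fold change of Gzmb was 1.21 (SE 0.0248, 95% interval 1.16 to 1.27, limma adjusted p = 1.03e-10), at rank 266 among the genes tested. Gzmb was already between rank 4 and rank 8 by level in the DMSO libraries, and it was at rank 2 in every DADA library, below only Eef1a1, a translation elongation factor. It made up 98.2% to 98.3% of the summed FPKM of the 10 genes in DMSO and 96.8% to 97.0% in DADA.

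Granzymes A and K, the trypsin-like members, were low without DADA. Gzma stood at 0.781, 1.82, 2.36 and 0.856 FPKM in DMSO libraries 1 to 4. It stood at 10.7, 11.3, 11.7 and 11.7 FPKM in DADA. The groups were well apart, although DMSO libraries 2 and 3 were above those numbered 1 and 4, and the coefficient of variation was 52.8% in DMSO against 4.30% in DADA. The DMSO values rest on an estimated 10 to 32 fragments per library. The log2 fold change of Gzma was 2.38 (SE 0.183, 95% interval 1.97 to 2.79, limma adjusted p = 1.54e-06), at rank 56, and 4 DADA libraries above 1 FPKM were enough for it to pass the filter. Gzmk was listed at 0 in all 4 DMSO libraries and at 0.347, 0.219, 0.0779 and 0.398 FPKM in DADA libraries 1 to 4, which is an estimated 1 to 10 fragments. No DMSO value reached a DADA value, and the exact permutation p was 0.0286, two-sided, the smallest that 4 against 4 libraries allow. No ratio of means is given for Gzmk because one group is listed at 0, and all of its values lie below the filter. Its log2 difference in a fit without the filter depends on the FPKM added. It was 0.33 (95% interval 0.16 to 0.50) with 1 FPKM added and 1.75 with 0.1 FPKM added.

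Of Gzmc to Gzmg, the rodent granzymes related to Gzmb, Gzmc, Gzmd and Gzmf passed the filter. Only Gzmc and Gzmd of these were called higher, by smaller amounts. Gzmc stood at 23.0, 22.2, 24.9 and 21.4 FPKM in DMSO and at 34.7, 35.9, 35.1 and 33.0 FPKM in DADA. The groups did not overlap, and the log2 fold change was 0.58 (SE 0.0460, 95% interval 0.48 to 0.68, limma adjusted p = 1.97e-06). Gzmd stood at 1.90, 1.62, 2.11 and 2.32 FPKM in DMSO and at 3.19, 3.50, 3.12 and 2.53 FPKM in DADA. Here DADA library 4 lay just above the highest DMSO library, and the log2 fold change was 0.45 (SE 0.0926, 95% interval 0.25 to 0.66, limma adjusted p = 0.00159).

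Gzme, Gzmf and Gzmg were near 1 FPKM or below in every library, and their groups overlapped. Gzme had a mean of 0.758 ± 0.156 FPKM in DMSO and 1.24 ± 0.229 FPKM in DADA (SD, n = 4), with an exact permutation p of 0.0571. Gzmf had 0.755 ± 0.315 FPKM and 1.09 ± 0.143 FPKM, with an exact permutation p of 0.0857 and a limma adjusted p of 0.0859 for a log2 fold change of 0.27 (95% interval −0.01 to 0.55). It was the one tested gene of the 10 that was not called, and leaving out DMSO library 2, its highest DMSO value at 1.11 FPKM, brought the adjusted p to 0.0224. Gzmg had 0.169 ± 0.200 FPKM in DMSO, with 2 libraries listed at 0, and 0.670 ± 0.302 FPKM in DADA, with an exact permutation p of 0.0857. These 3 genes rest on an estimated 0 to 24 fragments in a library. Gzmm, whose product prefers methionine or leucine, was the only member with a lower mean in DADA, at 0.376 ± 0.104 FPKM in DMSO and 0.290 ± 0.224 FPKM in DADA, and the groups overlapped (exact permutation p = 0.6). DADA library 3 was listed at 0 for Gzmm, and without it the sign of the log2 difference turned, from −0.11 to 0.01.

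Gzme, Gzmg, Gzmk and Gzmm were not tested with the filter on low values. In a fit without the filter, over 16167 genes of which 24.8% were called higher, 3 of these 4 were called higher. The log2 fold change was 0.35 for Gzme (limma adjusted p = 0.0126), 0.51 for Gzmg (limma adjusted p = 0.0296) and −0.11 for Gzmm (limma adjusted p = 0.525, 95% interval −0.39 to 0.18), and the adjusted p of Gzmk was 0.00615. The call of Gzmg was lost, with limma adjusted p-values of 0.0642 to 0.0904, without any of DMSO libraries 2 and 3 and DADA libraries 1, 3 and 4. Across all 10 genes, 6 had every DADA library above every DMSO library, which 28.4% of the genes tested with the filter and 23.2% of those in the fit without it also had.

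**Figure D2:**
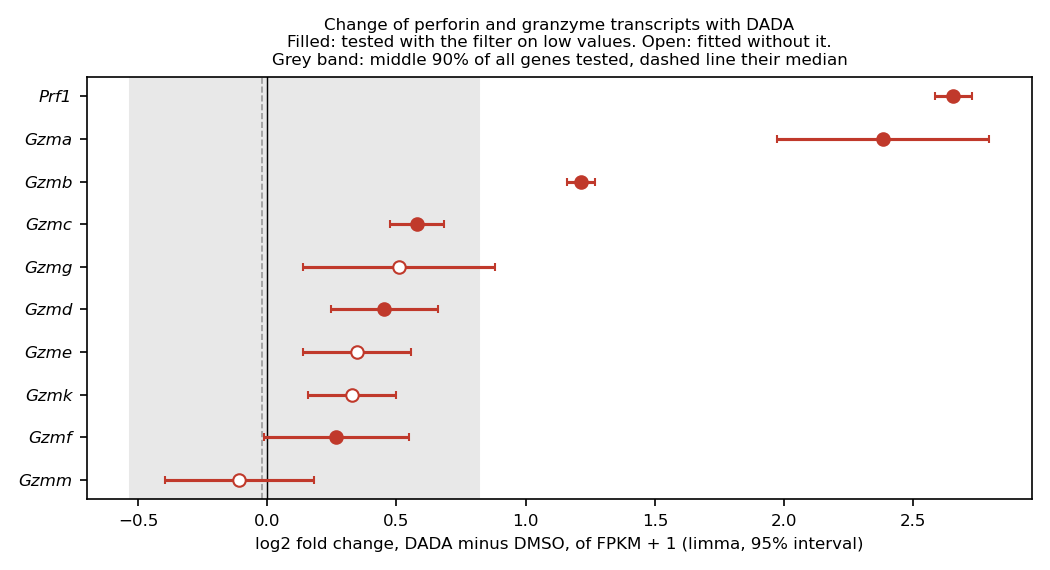
Log2 fold change of each gene (x axis, DADA minus DMSO, log2 of FPKM + 1, point with 95% interval from limma); filled points passed the filter on low values and open points come from the fit without it, and the grey band holds the middle 90% of all genes tested. Prf1 (2.66), Gzma (2.38) and Gzmb (1.21) lie to the right of the band, and the interval of Gzmf and that of Gzmm include 0.

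The order of the levels changed between the groups. In DMSO, Gzmb was followed by Prf1 and Gzmc, whose ranges overlapped at 23.8 to 26.1 and 21.4 to 24.9 FPKM, and then, far below, by the other 7 genes, each of which overlapped its neighbour in the order. In DADA, Prf1 stood clear of Gzmc, and Gzma rose to the fourth place with a range that met neither Gzmc above it nor Gzmd below it. Gzme, Gzmf, Gzmg, Gzmm and Gzmk overlapped their neighbours in DADA as well. The 10 genes together summed to 2909 to 3069 FPKM in the DMSO libraries and 6953 to 7140 FPKM in the DADA libraries, which is 0.641% to 0.672% and 1.57% to 1.63% of all FPKM in a library. Without Gzmb the sum was 52.6 to 55.1 FPKM in DMSO and 211 to 220 FPKM in DADA.

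The levels of Prf1, Gzma and Gzmc relative to Gzmb therefore differed between the groups. There were 112 to 125 FPKM of Gzmb per FPKM of Prf1 in the DMSO libraries and 40.1 to 43.9 in the DADA libraries. On the log2 scale the ratio of Prf1 to Gzmb was −6.88 ± 0.0665 in DMSO and −5.39 ± 0.0568 in DADA (SD, n = 4), a difference of 1.49. The ratio of Gzma to Gzmb was −11.14 ± 0.803 in DMSO and −9.24 ± 0.0467 in DADA, a difference of 1.91. With 1 FPKM added to both genes this difference was 1.17. Gzmc moved the other way relative to Gzmb, from −7.01 ± 0.0804 to −7.62 ± 0.0570, a difference of −0.61. In each of these 3 ratios the groups did not overlap, and the exact permutation p was 0.0286, two-sided, the smallest that 4 against 4 libraries allow. Benjamini-Hochberg adjustment over the 3 left it the same, as it must for equal p-values. Leaving out any of the 4 DADA libraries brought the exact permutation p of the Gzma ratio to 0.0571.

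**Figure D3:**
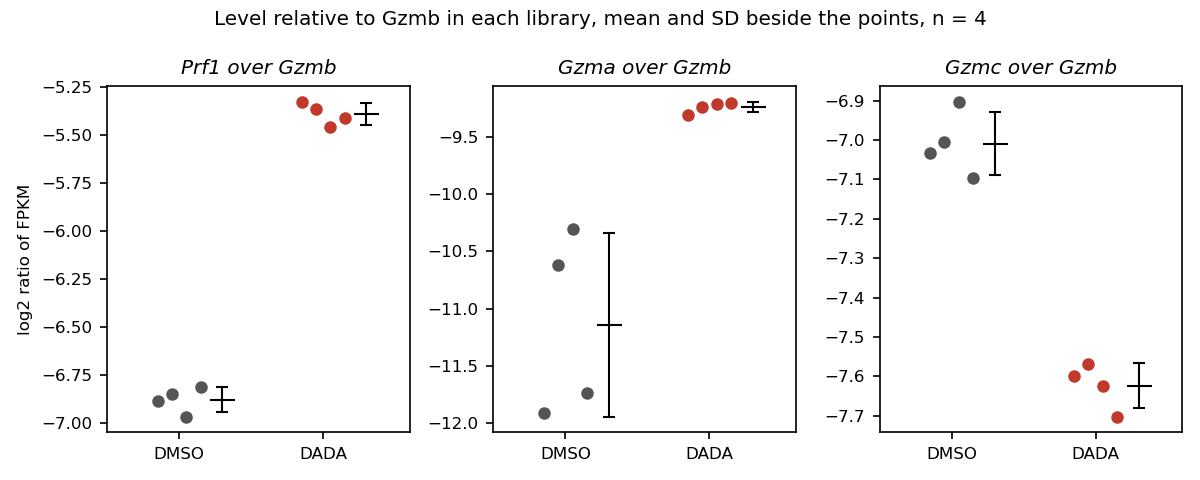
Log2 ratio of the FPKM of Prf1, Gzma and Gzmc to that of Gzmb (y axis, a separate scale in each panel) in each of the 4 DMSO and 4 DADA libraries, with the mean and SD beside the points. The ratio of Prf1 is higher by 1.49 and that of Gzma by 1.91 in DADA, and the ratio of Gzmc is lower by 0.61.

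Genes of one chromosomal group thus had different levels and different changes. In the RefSeq annotation of GRCm38.p6, Gzmb lies at one end of a run of 15 protein-coding genes on chromosome 14, followed in order by Gzmc, Gzmf, Gzmn, Gzmg, Gzmd, Gzme and Ctsg, and then by mast cell protease genes. The 9 genes of the run other than Gzmb to Gzmg were silent or nearly so, with 8 listed at 0 in every library and Gzmn, a granzyme gene known from testis, at no more than 0.0575 FPKM. Gzma and Gzmk are neighbours on chromosome 13. Each had every DADA library above every DMSO library. So did 28.4% of the genes tested with the filter and 23.2% of those in the fit without it. Gzmk lay below the filter, with an estimated 1 to 10 fragments in a DADA library, and a shared response of the 2 genes was not tested. Prf1 and Gzmm are on chromosome 10 and are not neighbours. Coordinates of the genes in the build of the deposited values are not given here.

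Because Gzmc to Gzmg resemble each other, reads of one could be assigned to another. The stretch of coding exon 4 shown here, bases 110 to 199 of an exon of 261 bases in each gene, is printed in lower case from the GENCODE M21 transcripts, with capitals for bases that differ from Gzmd.
Gzmd: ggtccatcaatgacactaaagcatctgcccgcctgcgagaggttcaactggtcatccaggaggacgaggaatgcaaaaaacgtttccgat
Gzme: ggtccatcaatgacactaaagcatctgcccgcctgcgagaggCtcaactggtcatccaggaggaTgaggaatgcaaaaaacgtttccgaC
Gzmg: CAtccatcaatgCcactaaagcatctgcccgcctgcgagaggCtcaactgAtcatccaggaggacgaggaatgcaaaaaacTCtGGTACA
Gzmf: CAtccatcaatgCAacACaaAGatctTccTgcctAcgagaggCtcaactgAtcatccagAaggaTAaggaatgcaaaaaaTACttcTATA
Gzmc: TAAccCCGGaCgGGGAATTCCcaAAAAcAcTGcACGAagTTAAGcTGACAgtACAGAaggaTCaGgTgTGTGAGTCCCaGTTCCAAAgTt
Gzmb: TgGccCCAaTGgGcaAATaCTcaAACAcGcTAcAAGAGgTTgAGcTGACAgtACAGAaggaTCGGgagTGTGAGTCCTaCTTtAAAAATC
In this exon Gzme differed from Gzmd at 4 bases, Gzmg at 35, Gzmf at 47, Gzmb at 111 and Gzmc at 117. The stretch shown was picked because no other of its length in the exon holds more differences between Gzmd and Gzme.

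Over the whole coding sequence, Gzmd and Gzme were 93.3% identical and Gzme and Gzmg 89.5%, while Gzmb was 75.9% identical to Gzmc and 65.9% to Gzmd. No stretch of 150 bases, the length of 1 read, was the same in any pair of the 10 genes. Over 50 bases, Gzmd and Gzme shared 110 stretches, which is 12.02% of those in Gzmd and 12.69% of those in Gzme, and Gzmb shared none with any member. Gzmc shared 32 such stretches with Gzme, 21 with Gzmg and 3 with Gzmd. The values of Gzmc, Gzmd, Gzme, Gzmf and Gzmg are therefore less certain as single genes than those of Gzmb and Prf1. Their split does not enter the sum of Gzmc to Gzmg, which was 25.6 to 28.5 FPKM in DMSO and 38.6 to 41.8 FPKM in DADA, a log2 fold change of 0.60 (SE 0.0398, limma adjusted p = 5.12e-07).

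**Figure D4:**
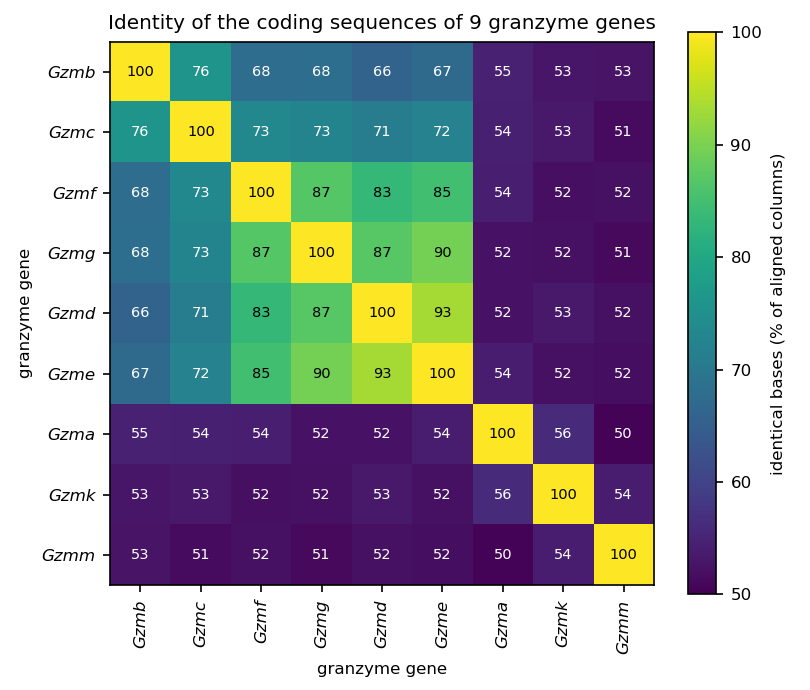
Identity of the coding sequences of the 9 granzyme genes, as the percent of aligned columns with the same base (colour and number in each cell). Gzmd, Gzme, Gzmf and Gzmg form a block of close relatives, with Gzmd and Gzme at 93.3%, and Gzma, Gzmk and Gzmm are distant from it and from each other.

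The levels of several regulators that bind sequences upstream of start sites were measured too. The sequences just upstream of the start sites are therefore shown for Prf1, Gzmb, Gzma, Gzmc and Gzmk, although Gzmk had the lowest mean level in both groups. Each is the 140 bases before the RefSeq start site in GRCm38.p6, read 5′ to 3′ on the strand of the gene, with capitals for matches to the motifs searched.
Prf1, chr10:61297696-61297835, plus strand: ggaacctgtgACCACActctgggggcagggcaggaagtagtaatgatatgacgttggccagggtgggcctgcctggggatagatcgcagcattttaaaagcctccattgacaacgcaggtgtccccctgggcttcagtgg
Gzmb, chr14:56262335-56262474, minus strand: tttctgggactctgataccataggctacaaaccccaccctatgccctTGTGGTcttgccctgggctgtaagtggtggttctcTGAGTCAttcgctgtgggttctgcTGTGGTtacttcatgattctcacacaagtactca
Gzma, chr13:113100982-113101121, minus strand: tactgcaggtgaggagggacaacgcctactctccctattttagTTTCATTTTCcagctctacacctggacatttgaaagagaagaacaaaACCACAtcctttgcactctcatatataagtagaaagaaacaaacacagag
Gzmk, chr13:113180966-113181105, minus strand: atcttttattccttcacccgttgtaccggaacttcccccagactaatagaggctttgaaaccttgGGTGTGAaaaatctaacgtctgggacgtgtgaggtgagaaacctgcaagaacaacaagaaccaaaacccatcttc
Gzmc, chr14:56234658-56234797, minus strand: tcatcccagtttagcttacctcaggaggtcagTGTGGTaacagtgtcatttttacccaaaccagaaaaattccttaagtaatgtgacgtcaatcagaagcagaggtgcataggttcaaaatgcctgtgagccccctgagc

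Motifs were searched on both strands in the 250 bases before each start site, with 11 such windows for the 10 genes because Gzmm has 2. The RUNX motif TGTGGT occurred in 9 of these 11 windows and in 14.05% of all 32851 RefSeq windows of this length. Those of Gzmc to Gzmg count as related sequences, since each pair among them was 70.2% to 94.8% identical. Gzmb held this motif at 93 to 88 and at 34 to 29 bases before the start, Gzma at 50 to 45 and Prf1 at 130 to 125. The AP-1 motif TGANTCA was found in the Gzmb window and in 6.75% of all windows. The interferon-stimulated response element (GAAA, any 2 bases, GAAA) was found for Gzma and in 2.98% of all windows, and the T-box motif GGTGTGA for Gzmk and 1 Gzmm window and in 3.33% of all windows. The STAT motif TTCNNNGAA was found in 1 Gzmm window and in 7.02% of all windows. A match describes letters in the sequence and does not show that a factor binds there.

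The transcription factors known to act on granzyme and perforin genes mostly had higher transcripts with DADA. Of 6 listed, 5 were called higher and 1 lower, beside 30.9% and 35.3% of all tested genes. The 6 were chosen with earlier results of these data known. Prdm1, which encodes Blimp-1, stood at 0.661 ± 0.0853 FPKM in DMSO and 7.56 ± 0.806 FPKM in DADA (SD, n = 4), which is 2.36 on the log2 scale (limma adjusted p = 2.18e-09). Prdm1 passed the filter only through its 4 DADA libraries, and it was below 1 FPKM in all 4 DMSO libraries. Runx3, a factor of the CD8 lineage, stood at 24.4 ± 0.977 and 52.0 ± 1.06 FPKM, which is 1.07 on the log2 scale (limma adjusted p = 1.72e-09). Eomes was the one that was lower, from 13.7 ± 0.405 to 10.5 ± 0.523 FPKM, which is −0.36 on the log2 scale (limma adjusted p = 2.94e-05). Tbx21, Stat5a and Stat5b were the other 3 called higher.

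Other genes were described from 5 lists: granule cargo and processing, granule transport and fusion, serpins, death ligands and regulators. Of the 27 tested genes on the cargo and transport lists, 17 were called higher and 3 lower. Over all 5 lists, 27 of 41 tested genes were called higher and 6 lower, with a median log2 fold change of 0.30. These counts, and those of each list below, stand beside the 30.9% of all tested genes called higher and the 35.3% called lower.

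Granule cargo and processing genes had 8 of 12 tested members called higher and 1 lower, with a median log2 fold change of 0.46. Srgn, the proteoglycan that holds granzymes in the granule, stood at 424 ± 5.04 FPKM in DMSO and 591 ± 21.5 FPKM in DADA, which is 0.48 on the log2 scale (limma adjusted p = 1.75e-07). Nkg7, a granule membrane protein needed for degranulation, rose by 0.62 and Cd63, a tetraspanin of the granule membrane, by 0.81 on the same scale. Ctsc, the protease that activates progranzymes, fell by 0.18 on the log2 scale, from 42.6 ± 1.32 to 37.4 ± 1.502 FPKM (limma adjusted p = 9.61e-04). Cst7, which encodes the Ctsc inhibitor cystatin F, was at 57.0 ± 2.15 FPKM in DMSO and 55.9 ± 2.52 FPKM in DADA and was not called (limma adjusted p = 0.546, 95% interval −0.11 to 0.06).

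Transport and fusion genes had 9 of 15 tested members called higher and 2 lower, with a median log2 fold change of 0.17. Rab27a, the GTPase that docks granules at the membrane, stood at 26.7 ± 0.685 FPKM in DMSO and 46.4 ± 1.04 FPKM in DADA, a log2 fold change of 0.77. Stx11, a syntaxin of granule fusion, stood at 12.3 ± 0.491 and 29.8 ± 0.497 FPKM, a log2 fold change of 1.21. Unc13d, the priming factor Munc13-4, fell by 0.12 (limma adjusted p = 0.0135) and the Rab27a effector Sytl1 by 0.35 on the log2 scale.

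Serpins that can inhibit granzymes or cathepsins had 4 of 5 members called higher and 1 lower, with a median log2 fold change of 0.48. Serpinb9, the inhibitor of granzyme B that protects the killer cell, stood at 134 ± 2.01 FPKM in DMSO and 188 ± 2.74 FPKM in DADA, a log2 fold change of 0.48 against 1.21 for Gzmb. Serpinb6b rose by 0.89 and Serpina3g by 1.61 on the log2 scale. Serpinb9b, a close relative of Serpinb9, fell by 1.30, from 5.13 ± 0.112 to 1.502 ± 0.271 FPKM (limma adjusted p = 2.13e-07).

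The ligands that kill through death receptors, the other route of cytotoxic T cells, did not move together. Fasl stood at 17.5 ± 1.51 FPKM in DMSO and 16.9 ± 0.830 FPKM in DADA and was not called (limma adjusted p = 0.511, 95% interval −0.18 to 0.09). Tnfsf10, which encodes TRAIL, rose by 1.12 and Lta, lymphotoxin alpha, fell by 0.20 on the log2 scale.

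**Figure D5:**
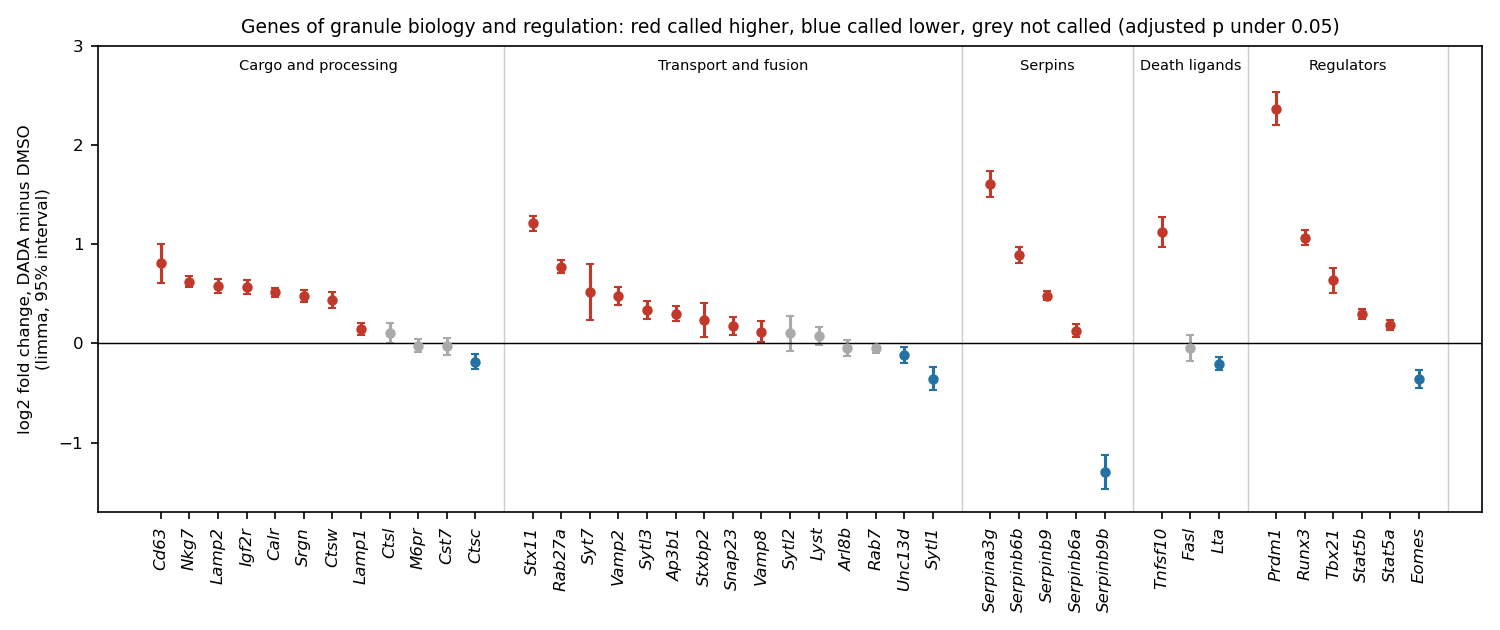
Log2 fold change (y axis, DADA minus DMSO, with 95% interval from limma) of the 41 tested genes of granule cargo, granule transport, serpins, death ligands and regulators, ordered by size within each list; red points are called higher, blue lower and grey not called. Prdm1 (2.36), Serpina3g (1.61) and Stx11 (1.21) are the highest and Serpinb9b (−1.30) the lowest.

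By the Pearson correlation of log2(FPKM + 1) over the 8 libraries, the genes most like Prf1 were Il2rb, which encodes an IL-2 receptor chain, Ero1a and Ifit1, and those most like Gzmb were Samd9l, Gbe1 and Cd24a. The correlations lay between 0.9997 and 0.9998, but 449 and 440 of 8187 genes compared reached 0.99 with Prf1 and Gzmb, since all points share the same libraries and the same group difference. The order of these genes is a description only.

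Markers of other cells were mostly low, and the highest of them was Zbtb7b, at 14.8 to 16.7 FPKM over all libraries. The summed level of 7 NK cell markers was 2.46 to 2.96 FPKM in DMSO and 2.29 to 3.02 FPKM in DADA, most of it from Klre1. Ncr1 was listed at 0 in 3 of the 4 libraries of each group. Below the filter, Klrb1c was at 0.0180 ± 0.0231 FPKM in DMSO and 0.185 ± 0.0497 FPKM in DADA and Klri2 at 0.528 ± 0.0777 and 0.288 ± 0.141 FPKM (SD, n = 4), both without overlap between the groups and in opposite directions. Of 8 mast cell and basophil markers, 4 (Tpsb2, Tpsab1, Ms4a2 and Prss34) were listed at 0 in every library. Their sum was 0.873 to 0.941 FPKM in DMSO and 4.21 to 4.57 FPKM in DADA, and the difference came from Kit, at 0.542 ± 0.0770 and 3.98 ± 0.255 FPKM, which passed the filter only through the DADA libraries. For γδ T cells only Sox13 was among the rows analysed, at no more than 0.113 FPKM. The 7 myeloid markers summed to 3.44 to 3.96 FPKM and 5.11 to 5.59 FPKM, almost all from Cd68, with Csf1r, Adgre1, S100a8 and S100a9 at 0, and 4 CD4 T cell markers to 16.3 to 17.4 FPKM and 15.3 to 15.8 FPKM, mostly from Zbtb7b. Below the filter, Foxp3 had means of 0.0693 FPKM in DMSO and 0.214 FPKM in DADA, and Cd40lg 0.222 and 0.0767 FPKM. Neither overlapped between the groups. The 6 B cell markers summed to 2.78 to 3.76 FPKM in DMSO and 3.23 to 4.40 FPKM in DADA, mostly from Cd79b. Ebf1, below the filter, had means of 0.255 and 1.10 FPKM without overlap. Erythroid markers summed to no more than 0.426 FPKM. Tpsb2, Tpsab1, Ms4a2, Fcer1a, Csf1r and Adgre1 were at or near 0 in both groups. Kit and Cd68 were called higher with DADA and Zbtb7b lower. The part of the Kit, Cd68 and Ebf1 changes in the granzyme results was not tested.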

How the data were processed

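The authors deposited 1 table of FPKM values per library, from 150-base paired reads. The submitters' processing notes name HISAT2 2.0.5, StringTie 1.3.3 and the builds GRCm39 and GRCh38, without roles. The genes and lists were chosen with earlier results of these data known. Values were analysed as log2(FPKM + 1) with limma 3.58.1 in R 4.3.3 (1 term for DADA, eBayes with trend, Benjamini-Hochberg over 10666 genes with at least 1 FPKM in at least 4 libraries), and single genes by exact permutation of the group labels (two-sided, 70 assignments). Fold changes on this scale understate those of low genes. Depth is an estimate: at the total chosen for each library, 41.6% to 47.2% of low values over 4431 genes lay within 0.1 of a whole fragment. Evenly spread values would give 20% at a fixed total. The total was chosen to make this share highest, so 20% is not its chance level. Only totals within a limited range were searched, and a larger total was not tested. As depth is only estimated, no count test was run. From each list the text names the 2 genes called higher and the 2 called lower that changed most, plus 9 that the rule names by symbol. Exon and transcript sequences came from GENCODE M21 and upstream sequences from RefSeq GRCm38.p6, matched by symbol for all 10 genes.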

Additional observations from a re-analysis of the deposited data

Results flagged for a closer look

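In 68 groups of 4 libraries examined, 2 had 1 library set apart from the other 3, and chance gives about 1 in 20. For Unc13d, DMSO library 4 (32.4 FPKM) lay below the other DMSO libraries by 0.887 of the range of the group, and for Lta, DADA library 1 (79.2 FPKM) lay below the others by 0.874 of the range; both are past the 95% limit of Dixon's test. Neither was a granzyme or perforin gene.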

How the results depend on the processing

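Prf1, Gzma, Gzmb, Gzmc and Gzmd kept their direction and call under every alternative in which they were tested: a pseudocount of 0.1, no filter, a mean of at least 5 FPKM, rescaling to the same total, median-ratio scaling, quantile normalization, no trend, rows without a mouse gene identifier left out, and each library left out. Their log2 fold changes ranged from 2.63 to 2.71, 2.25 to 3.02, 1.20 to 1.25, 0.55 to 0.62 and 0.33 to 0.61. Leaving out each library in turn gave 0.15 to 0.36 for Gzmf and −0.19 to 0.01 for Gzmm, where the value without DADA library 3 was 0.0088. Without the filter 8 of 10 genes were called higher, since more genes were tested. Between 5741 and 7868 genes of all those tested were called, against 7064, and 42.5% to 51.6% of the calls were higher across the scalings, against 46.7%. Quantile normalization ended the calls that Gzme (adjusted p = 0.117) and Gzmg (adjusted p = 0.0786) had without the filter. The cause was not tested.

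The data did not show pairing by replicate number, as same-numbered libraries had correlations of 0.095, −0.12, −0.088 and 0.075 between their deviations. Such correlations cannot tell whether same-numbered libraries shared a mouse or a culture. With the replicate number as a block, the log2 differences of the ratios to Gzmb stayed at 1.49 for Prf1, 1.91 for Gzma and −0.61 for Gzmc with an exact permutation p of 0.125, the smallest that 4 pairs can give. With 1 FPKM added to both genes the difference was 1.17 for Gzma. Leaving out each library gave 1.65 to 2.19 for Gzma, with 0.0571 the highest exact permutation p. Members called higher stayed at 5 under the block. Depth limits Gzmk, Gzmg, Gzmm, Gzmf and Gzme, which rest on few fragments.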
